A study of Mus musculus with 32 samples.

Results

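The 6 genes described here, Mal, Mbp, Prx, Pmp22, Sox10 and Ngfr, are genes of Schwann cells, the glia that wrap the axons of peripheral nerves, and of the myelin these cells make. They were chosen by name, with earlier results of these data known, from the deposited table of normalized gene values, which lists 18124 genes. All 6 were among the 15588 genes with a mean value of at least 10 over all libraries, the set that was tested. RNA was measured by sequencing in subcutaneous white adipose tissue (WAT, the fat under the skin) of 32 C57BL/6J mice, 1 library per mouse, on day 9 after sham surgery or after VSG (vertical sleeve gastrectomy, in which the greater part of the stomach is cut away). The mice were sampled at zeitgeber time (ZT, hours after lights on) 1, 7, 13 or 19, with 4 in each of the 8 groups. The animals of both arms shared the same feeding: before surgery they had liquid diet and a night of fasting, after surgery liquid diet alone until day 3, and on day 4 a choice between liquid diet and a high-fat diet (HFD). No allele or drug distinguishes the groups, and each label carries a weight loss, with no unit given, of 2.15 to 8.96 after sham and 10.59 to 23.12 after VSG.

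In peripheral nerve, the transcription factor Sox10 keeps cells in the glial fate and acts with Egr2 on the genes of myelin. Myelin is a stack of Schwann cell membrane: Pmp22 is a tetraspan protein of its compact layers, Mbp compacts its cytoplasmic faces, Mal is a proteolipid of its lipid-rich domains, and Prx links the outer membrane of the Schwann cell to its surroundings through Drp2. Ngfr, the p75 neurotrophin receptor, marks Schwann cells that do not myelinate and rises in those that have lost their axon. White fat is innervated by small nerve bundles, many of whose fibres carry no myelin. Several of the 6 are made outside nerve as well: Pmp22 in many tissues, Mal in T cells and epithelia, and Ngfr in follicular dendritic cells of lymphoid tissue.

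Upstream sequences are shown for Mal and Prx, which varied together in the results below, and for Pmp22, whose response to surgery differed from theirs. Each is the 250 bases before an annotated transcription start, 5′ to 3′ on the gene's strand, from RefSeq on GRCm38.p6. For Pmp22, which has several annotated starts, the most upstream one and one further into the gene are given, at chr11:63128732-63128981 and chr11:63132319-63132568. The Mal window is chr2:127656696-127656945 (minus strand) and the Prx window chr7:27499074-27499323 (plus strand). Capitals mark a match to the EGR letters described next.
Mal: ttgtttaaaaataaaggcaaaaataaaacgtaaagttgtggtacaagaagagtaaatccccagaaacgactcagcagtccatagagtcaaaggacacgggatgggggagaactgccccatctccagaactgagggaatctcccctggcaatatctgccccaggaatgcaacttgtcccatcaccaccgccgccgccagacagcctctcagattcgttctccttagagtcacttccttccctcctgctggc
Prx: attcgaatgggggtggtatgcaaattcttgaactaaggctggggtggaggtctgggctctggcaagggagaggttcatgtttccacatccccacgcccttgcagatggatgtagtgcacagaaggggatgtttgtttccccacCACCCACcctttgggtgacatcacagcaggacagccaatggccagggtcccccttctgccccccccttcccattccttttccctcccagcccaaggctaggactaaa
Pmp22, upstream start: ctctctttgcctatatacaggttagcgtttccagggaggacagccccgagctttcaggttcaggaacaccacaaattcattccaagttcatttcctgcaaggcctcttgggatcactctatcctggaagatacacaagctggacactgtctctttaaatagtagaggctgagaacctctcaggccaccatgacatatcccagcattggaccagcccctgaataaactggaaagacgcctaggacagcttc
Pmp22, inner start: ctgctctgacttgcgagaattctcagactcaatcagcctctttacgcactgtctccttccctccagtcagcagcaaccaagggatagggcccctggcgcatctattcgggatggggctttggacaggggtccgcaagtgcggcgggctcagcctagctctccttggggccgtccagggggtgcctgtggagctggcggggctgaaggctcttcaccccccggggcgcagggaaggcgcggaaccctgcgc
The windows were searched on both strands for letters of SOX factors (ACAAAG, the variant ACAATG, and the run AACAAT, which can overlap that variant) and for GTGGGNG of EGR factors. Prx held the only match, an EGR match on the opposite strand (CACCCAC) that starts 107 bases before the transcription start. Of 32851 promoter windows of this length, 29.6% held a SOX match and 28.1% an EGR match, so a match or its absence in these windows describes the letters only. The upstream Pmp22 window was 48.8% G or C and the inner one 64.8%, with Prx at 56.4% and Mal between Prx and the upstream Pmp22 window. Reads of the Pmp22 starts are summed in the gene value and cannot be told apart here.

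The genes lie on 5 mouse chromosomes in the mm10 build (GRCm38), at the positions given by the deposited table. Mal (ENSMUSG00000027375) is on the minus strand at chr2:127633226-127656695, Prx (ENSMUSG00000053198) on the plus strand at chr7:27499324-27520214, Sox10 (ENSMUSG00000033006) on the minus strand at chr15:79154913-79164490 and Mbp (ENSMUSG00000041607) on the plus strand at chr18:82475146-82585637. Chromosome 11 carries both Ngfr (ENSMUSG00000000120, minus strand, chr11:95568818-95587735) and Pmp22 (ENSMUSG00000018217, plus strand, chr11:63128982-63159547). Prx shares 300 bases of exon with the antisense gene Gm15541, and since the sources used here do not say whether strand was used in counting, reads of this stretch cannot be assigned to either gene.

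Reads assigned to genes ran from 20202433 to 36652522 per library after sham and from 15723832 to 37161290 after VSG. Gene values are given as the authors normalized them, that is, reads divided by a size factor of the library. The least abundant gene, Ngfr, had 24 to 305 reads per library, and Mal and Sox10 fell to 32 and 31 reads in their lowest library, so single low values carry more counting error than those of Mbp (1260 to 4897 reads) or Pmp22 (3026 to 9910 reads). Libraries of 2 kinds stood apart. The 7 libraries holding muscle RNA (replicate 4 of sham ZT1, replicate 2 of sham ZT13, replicate 2 of VSG ZT1, replicate 3 of VSG ZT13, and replicates 1, 2 and 4 of VSG ZT19) had a mean log2 value over 16 skeletal muscle genes of at least 7.49, against at most 4.92 in the other 25. A further 5 libraries (replicate 1 of sham ZT1, replicates 1, 3 and 4 of VSG ZT1, and replicate 1 of VSG ZT13) had a mean log2 value over 15 B cell genes of at least 8.58, against at most 6.92 elsewhere. No library of ZT7 belonged to either kind.

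Myelin and Schwann cell RNA was present in every library, and its order of abundance was the same after both operations. In reads per kilobase of exon scaled to the depth of the library (RPKM), Pmp22 stood at 113 ± 16.3 after sham and 111 ± 25.3 after VSG (SD, n = 16 each). Mbp followed at 12.0 ± 2.82 and 17.1 ± 4.94, Prx at 3.29 ± 1.42 and 5.54 ± 2.02, and Mal at 2.13 ± 1.06 and 3.83 ± 1.58. Sox10 stood at 1.47 ± 0.707 and 2.169 ± 0.673, and Ngfr at 0.678 ± 0.415 and 1.09 ± 0.729. Within a library, Pmp22 exceeded Mbp, Mbp exceeded Prx and Prx exceeded Mal in 16 of 16 sham and 16 of 16 VSG libraries, although the ranges of Prx and Mal over libraries overlapped. Mal exceeded Sox10 in 15 of 16 libraries of each arm, and Sox10 exceeded Ngfr in 14 of 16 sham and 13 of 16 VSG libraries. Of 8 genes of oligodendrocytes, the myelin cells of the brain, 2 were in the table. Mobp had a median value of 0 and a highest value of 237, in replicate 2 of VSG ZT7. That library also had the highest Mbp value of the series (5605), and any link between these values was not tested. Myrf ran from 3.71 to 51.1 with a median of 26.7.

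Mal, Mbp, Prx, Sox10 and Ngfr were higher after VSG than after sham when averaged over the 4 times, by 1.30 to 1.71 times, and Pmp22 was not called. These 5 of 6 genes passed an adjusted p of 0.05 (limma with Benjamini-Hochberg adjustment over 15588 genes), in a comparison in which 39.2% of all genes tested were called, 18.3% higher and 20.9% lower. Because the 6 were chosen with earlier results of these data known, the share of them called is not an independent result. The median log2 fold change over all genes tested was 0.0125. In bulk tissue, fewer cells of a type and less RNA per cell cannot be told apart, here as in all results below. None of the 5 calls held without the 7 libraries with muscle RNA, when 12.5% of all genes were still called higher.

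Mal, the myelin proteolipid, showed the largest difference of the 6 genes over all times. At ZT1 its values in replicates 1 to 4 were 27.4, 144, 60.2 and 186 after sham and 115, 369, 217 and 215 after VSG. At ZT7 they were 236, 121, 137 and 141 after sham and 487, 371, 265 and 297 after VSG. All 4 VSG libraries of ZT7 lay above all 4 sham libraries, and at ZT1 the groups overlapped through the lowest VSG library. The ZT13 values were 84.6, 165, 194 and 103 after sham and 44.7, 264, 357 and 279 after VSG. At ZT19 they were 280.3, 203, 117 and 327 after sham and 193, 403, 156 and 218 after VSG. At ZT13, 3 of 4 VSG libraries lay above every sham library and the remaining one was the lowest of the 8, and at ZT19 the arms lay over each other. Averaged over times, Mal was 158 ± 78.6 after sham and 266 ± 114 after VSG (SD, n = 16 each), a log2 difference of 0.78 ± 0.27 (SE; adjusted p = 0.0240, limma), with 14 of 16 VSG libraries above the sham median.

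Mbp, the basic protein that compacts myelin, followed the same course at a smaller size. Its ZT1 values were 2036, 2838, 1668 and 2682 after sham and 2164, 3915, 3508 and 3398 after VSG. At ZT7 the sham libraries held 3714, 2361, 2669 and 2408 and the VSG libraries 5257, 5605, 3815 and 3899. Again the ZT7 arms were apart, with the lowest VSG library just above the highest sham library, and again replicate 1 was the low VSG library of ZT1. At ZT13 the sham libraries held 2112, 2668, 3019 and 2159 and the VSG libraries 1522, 3484, 4750.3 and 3867. At ZT19 the sham libraries held 4062, 3213, 2138 and 3322 and the VSG libraries 2937, 4397, 2274 and 2710.2. Replicate 1 of VSG ZT13 had the lowest Mbp of all 32 libraries, while the other 3 VSG libraries of that time exceeded every ZT13 sham library. Over all times Mbp was 2692 ± 649 after sham and 3594 ± 1109 after VSG (SD, n = 16 each), a log2 difference of 0.38 ± 0.14 (SE; adjusted p = 0.0283, limma), and 13 of 16 VSG libraries lay above the sham median.

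Prx, the periaxin of the myelin sheath's outer membrane, moved with Mal. In ZT1 libraries it was 143, 462, 235 and 448 after sham and 318, 982, 711 and 729 after VSG. In ZT7 libraries it was 789, 400.1, 445 and 355 after sham and 1054, 845, 825 and 739 after VSG. Here 3 of 4 VSG libraries lay above every sham library at either time, and replicate 1 of the ZT7 sham group reached into the VSG range. In ZT13 libraries it was 363, 496, 693 and 298 after sham and 149, 801, 1300.1 and 1003 after VSG. In ZT19 libraries it was 908, 680.1, 395 and 732 after sham and 678, 994, 518 and 653 after VSG. The highest Prx value of the series was in the muscle library of VSG ZT13, and 1 of 4 ZT19 VSG libraries, also one with muscle RNA, lay above the sham libraries. Over all times Prx was 490.1 ± 213 after sham and 769 ± 283 after VSG (SD, n = 16 each), a log2 difference of 0.65 ± 0.24 (SE; adjusted p = 0.0325, limma).

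Sox10, the transcription factor of the glial lineage, was also apart between the arms at ZT7. Sham libraries held 26.5, 74.3, 65.6 and 108 at ZT1 and VSG libraries 87.8, 207, 104 and 131. For ZT7 the values were 127, 123, 113 and 108 after sham and 181, 240.4, 206 and 215 after VSG. At ZT7 the sham libraries lay close together (118 ± 9.06, SD, n = 4), and every VSG library lay above them. For ZT13 the values were 106, 101, 153 and 74.2 after sham and 49.5, 168, 187 and 181 after VSG. For ZT19 the values were 170.5, 195, 97.5 and 269.9 after sham and 175, 246, 146 and 119 after VSG. At ZT19 the arms overlapped, and a sham library held the highest value of the series. Over all times Sox10 was 119 ± 57.2 after sham and 165 ± 55.5 after VSG (SD, n = 16 each), a log2 difference of 0.53 ± 0.19 (SE; adjusted p = 0.0319, limma).

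Ngfr, the neurotrophin receptor, did not share this course. The ZT1 libraries had 157, 56, 109.6 and 52.6 after sham and 195, 82.7, 223 and 82.4 after VSG. The ZT7 libraries had 68, 43.2, 46.2 and 70.01 after sham and 47.6, 93.9, 109 and 47.7 after VSG. Both arms overlapped at ZT1 and ZT7, with 2 VSG libraries inside or below the sham range and 2 above it at each time. The ZT13 libraries had 26, 45, 40.7 and 21.7 after sham and 175, 39.3, 58.3 and 49 after VSG. The ZT19 libraries had 39.5, 50.5, 66.7 and 86.7 after sham and 65.4, 81.8, 55.3 and 59.3 after VSG. The 4 highest Ngfr values of the series, in replicates 1 and 3 of VSG ZT1, replicate 1 of VSG ZT13 and replicate 1 of sham ZT1, were all in libraries high in B cell genes. Over all times Ngfr was 61.2 ± 33.8 after sham and 91.5 ± 56.6 after VSG (SD, n = 16 each), a log2 difference of 0.53 ± 0.21 (SE; adjusted p = 0.0458, limma).

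Pmp22, the tetraspan protein of compact myelin, was the exception. It was 4269, 7060.2, 6167 and 8071 after sham and 3963, 7390.2, 4961 and 7162 after VSG at ZT1. At ZT7 it was 9161, 6914, 7931 and 7502 after sham and 10175, 8361, 6644 and 6233 after VSG. The ZT7 VSG libraries held both the highest and the 2 lowest values of that time. At ZT13 it was 6355, 6257, 7418 and 7210.2 after sham and 3656, 7744, 6738 and 6407 after VSG. Among ZT19 libraries it was 8709, 6514, 7652 and 6445 after sham and 5845, 7479, 5701 and 5254 after VSG, with 3 of 4 VSG libraries below every sham library. Over all times Pmp22 was 7102 ± 1155 after sham and 6482 ± 1641 after VSG (SD, n = 16 each). The log2 difference of −0.16 ± 0.11 had a 95% interval of −0.37 to 0.05 (adjusted p = 0.251, limma), which leaves out a rise of the size seen for the other 5 genes and leaves in a fall.

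**Figure D1:**
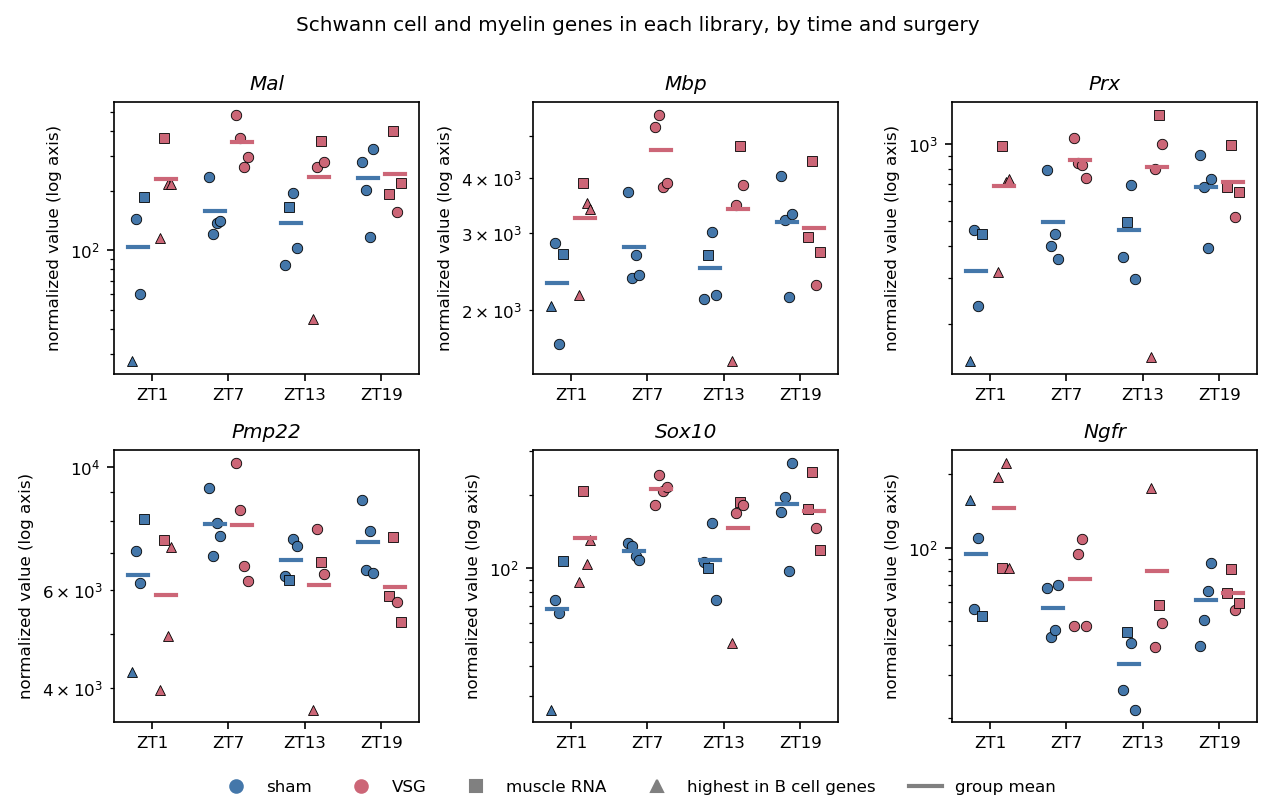
Normalized values (log axis) of the 6 genes in each of the 32 libraries by zeitgeber time, sham in blue and VSG in red, with squares for libraries with muscle RNA, triangles for libraries highest in B cell genes, and bars for the mean of 4 libraries. Mal, Mbp and Sox10 do not overlap between arms at ZT7, and the triangles hold the lowest Mal, Prx and Sox10 values and the highest Ngfr values.

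For every gene but Ngfr, leaving out the 2 kinds of library moved the effects in opposite ways. Without the 7 libraries with muscle RNA (2 sham, 5 VSG), the log2 differences over all times were 0.62 for Mal (adjusted p = 0.150, limma), 0.47 for Prx (0.240), 0.24 for Mbp (0.287), 0.44 for Sox10 (0.157), 0.53 for Ngfr (0.151) and −0.20 for Pmp22 (0.269). All kept their sign, 0 of 6 passed the threshold, and the VSG group of ZT19 was left with 1 library, assumed in the fit to vary like the other groups. Within their own group, muscle libraries lay above every library without muscle RNA in 6 of 7 cases for Mal, 5 of 7 for Mbp, Prx and Sox10, and 4 of 7 for Ngfr and Pmp22. They lay below every such library in 2 of 7 cases for Pmp22 and 1 of 7 for Sox10 and Ngfr. Of these 7 cases, the 3 of VSG ZT19 were set against 1 library, that of VSG ZT1 against 3 B cell libraries, and those of sham ZT1 and VSG ZT13 against 3 libraries of which 1 was a B cell library. The summed level of the muscle list, all 16 of whose genes were in the table, ran from 1786 to 81077 after sham and from 929 to 84894 after VSG, with Ckm, Myh4, Tnnc2 and Mb at 0 in their lowest library. With the mean of that list as a covariate, all 5 calls held, at adjusted p = 0.0319 for Mal, 0.0390 for Mbp, 0.0448 for Prx, 0.0446 for Sox10 and 0.0477 for Ngfr (limma).

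Without the 5 libraries highest in B cell genes (1 sham, 4 VSG), the differences were larger for Mal, Mbp, Prx and Sox10 and smaller for Ngfr. This fit left the VSG group of ZT1 with 1 library, replicate 2, which holds muscle RNA, and assumed it to vary like the other groups. All 7 muscle libraries stayed in, 2 of them sham and 5 VSG. The log2 values were 1.02 for Mal (adjusted p = 0.00161, limma), 0.90 for Prx (0.000994), 0.53 for Mbp (0.00446), 0.72 for Sox10 (0.00143), 0.33 for Ngfr (0.184) and −0.05 for Pmp22 (0.684). So 4 of 6 were called higher, where 16.2% of all genes were, and the Ngfr call was lost. Replicate 1 of VSG ZT13 lay below the other 3 libraries of its group for Mal, Mbp, Prx, Sox10 and Pmp22 and above them for Ngfr, and replicate 1 of sham ZT1 did the same for all but Mbp. In each of these groups 1 of the other 3 libraries held muscle RNA. In VSG ZT1 the 3 B cell libraries could be set only against replicate 2, which holds muscle RNA, and all 3 were below it for every gene but Ngfr. All 15 B cell genes were in the table and none was at 0 in any library, and their summed level ran from 8432 to 100629 after sham and from 4200 to 124650 after VSG. The part of either kind of tissue in the differences beyond these values was not tested.

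**Figure D2:**
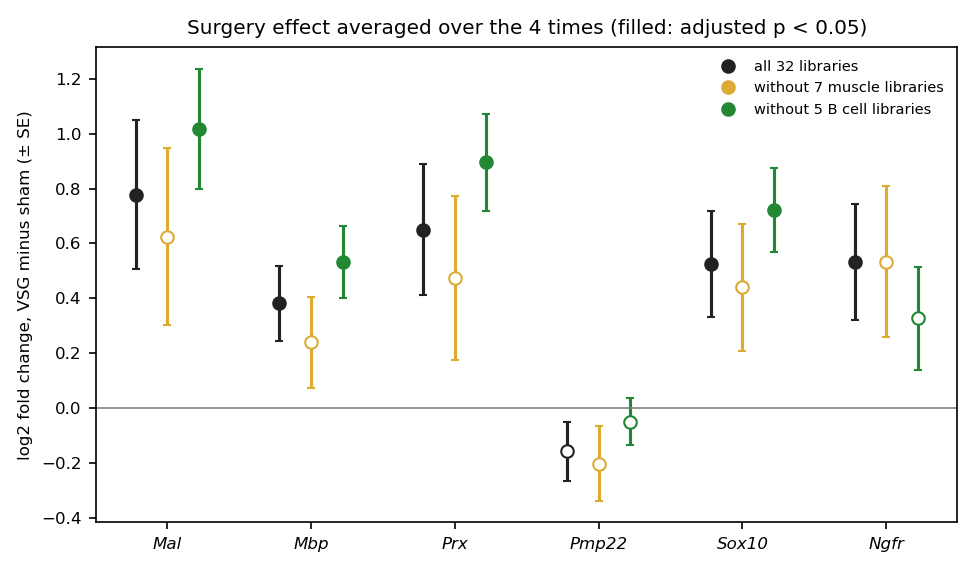
Log2 fold change of VSG against sham averaged over the 4 times (± SE) for each gene, from all 32 libraries (black), without the 7 muscle libraries (yellow) and without the 5 libraries highest in B cell genes (green), with filled points for an adjusted p under 0.05. The 5 filled black points turn open without the muscle libraries, and 4 of 5 stay filled without the B cell libraries.

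Single libraries also decided calls near the threshold. The Mal call held in each of 32 fits that left out 1 library, with log2 differences of 0.65 to 0.95. The Mbp call was lost without replicate 3 of sham ZT1 (0.35), replicate 3 of VSG ZT13 (0.33) or replicate 3 of sham ZT19 (0.34), at adjusted p = 0.0521 to 0.0532 (limma). For Sox10 it was lost without replicate 2 of VSG ZT1 (0.47), replicate 4 of sham ZT13 (0.48), replicates 3 (0.48) or 4 (0.49) of VSG ZT13, replicate 3 of sham ZT19 (0.46) or replicate 2 of VSG ZT19 (0.48), at adjusted p = 0.0526 to 0.0600. Prx lost its call without replicates 1 (0.56) or 3 (0.62) of sham ZT1, replicate 2 of VSG ZT1 (0.60), replicate 4 of sham ZT7 (0.61), replicate 4 of sham ZT13 (0.60), replicates 3 (0.56) or 4 (0.59) of VSG ZT13, replicate 3 of sham ZT19 (0.59) or replicate 2 of VSG ZT19 (0.61), at adjusted p = 0.0505 to 0.0599. Ngfr lost it without any of 18 libraries, at log2 differences of 0.42 to 0.55 and adjusted p = 0.0503 to 0.0826. These were replicates 2 and 4 of sham ZT1, 1 and 3 of VSG ZT1, 2 and 3 of sham ZT7, 2 and 3 of VSG ZT7, 1 and 4 of sham ZT13, 1 and 3 of VSG ZT13, 1, 2 and 3 of sham ZT19, and 1, 2 and 4 of VSG ZT19. Scaling mattered too: after quantile normalization only Mbp of the 6 was called.

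The 5 higher genes and Pmp22 changed unequally, which a ratio within each library shows without the size factors. Mal relative to Pmp22 rose by 0.94 on the log2 scale (adjusted p = 0.00075, permutation within times, 15 pairs of genes), from −5.67 ± 0.71 after sham to −4.73 ± 0.52 after VSG (SD, n = 16 each). Mbp relative to Pmp22 rose by 0.54 (adjusted p = 0.00045, same permutation test), from −1.42 ± 0.30 to −0.88 ± 0.25. Sox10 relative to Pmp22 rose by 0.68 (adjusted p = 0.00124, permutation), and Pmp22 relative to Prx fell by 0.81 (adjusted p = 0.00075, permutation). The ratio of Ngfr to Pmp22 differed by 0.69 but was not called (p = 0.0263, adjusted p = 0.0656, permutation). Among Mal, Mbp, Prx, Sox10 and Ngfr, none of 10 ratios was called, the nearest being Mal to Mbp at 0.40 (p = 0.0197, adjusted p = 0.0592, permutation). With 1 library left out at a time, Mal to Mbp was called in 5 of 32 fits, Ngfr to Pmp22 in 4 and Mbp to Prx in 1. The lowest adjusted p was 0.00267 for Mal to Mbp and for Mbp to Prx (permutation).

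The 4 called ratios stayed called without any single library, at adjusted p of at most 0.00255, and without the 5 B cell libraries. Without the 7 muscle libraries they kept their direction and missed the threshold, at 0.83 for Mal, 0.44 for Mbp and 0.64 for Sox10 relative to Pmp22 and −0.68 for Pmp22 relative to Prx (adjusted p = 0.0521 for each, permutation). These tests were chosen after the values had been seen.

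**Figure D3:**
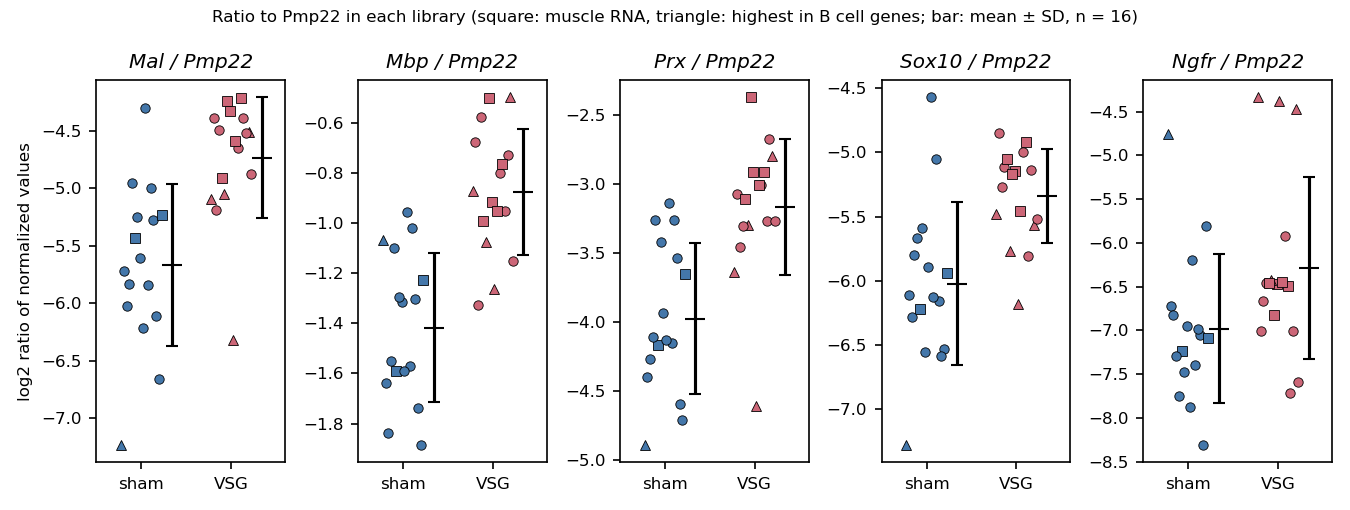
Log2 ratio of each of 5 genes to Pmp22 in the 16 sham and 16 VSG libraries, with the mean and SD beside the points, squares for muscle libraries and triangles for libraries highest in B cell genes. The VSG points lie mostly above the sham points for Mal, Mbp, Prx and Sox10, and for Ngfr 3 VSG triangles and 1 sham triangle stand far above the rest.

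By time of day, the differences were largest at ZT1 and ZT7 and near 0 at ZT19, but the dependence on time itself was not called. At ZT1 the log2 differences were 1.36 ± 0.54 for Mal, 1.13 ± 0.48 for Prx, 1.02 ± 0.39 for Sox10, 0.63 ± 0.42 for Ngfr and 0.49 ± 0.27 for Mbp (SE). At ZT7 they were 1.17 ± 0.54 for Mal, 0.86 ± 0.48 for Prx, 0.83 ± 0.39 for Sox10, 0.74 ± 0.27 for Mbp and 0.32 ± 0.42 for Ngfr. Ngfr alone was largest at ZT13, at 1.04 ± 0.42, where Mal and Prx stood at 0.52, Mbp at 0.35 and Sox10 at 0.30. These ZT13 values leaned on replicate 1 of VSG ZT13, a B cell library. Without it Ngfr stood at 0.58 at ZT13, below its 0.63 at ZT1, and Mal stood at 1.19, Prx at 1.21, Sox10 at 0.76 and Mbp at 0.70. At ZT19 Mal, Prx and Ngfr were at 0.07, 0.09 and 0.15, and Mbp and Sox10 at −0.05 and −0.06. Pmp22 was −0.13 at ZT1, −0.02 at ZT7, −0.20 at ZT13 and −0.27 at ZT19.

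None of the 6 genes was called at any single time (smallest adjusted p = 0.103, for Sox10 at ZT1, limma), where 5.52% of all genes were called at ZT1, 5.09% at ZT7, 9.94% at ZT13 and 0.0% at ZT19. The interaction of surgery and time was called for 0 of 6 genes (adjusted p = 0.9999 for each, limma F test) and for 0.0% of all genes. Over all genes, 225 had an unadjusted interaction p under 0.05, and edgeR called 0 genes and DESeq2 1. At ZT7, Mal, Mbp and Sox10 each separated fully, with an exact permutation p of 0.0286 (two-sided, 4 against 4), the smallest that 70 arrangements allow, before any adjustment for 24 such tests. For Prx the exact permutation p was 0.0571. Of all genes, 6.49% had every ZT7 VSG library above every sham library.

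The ZT7 calls differed between fits. In a fit of the 8 ZT7 libraries alone, Mal (adjusted p = 0.0267), Mbp (0.0383) and Sox10 (0.0157) were called higher (limma), and the same 3 were called without the 5 B cell libraries, none of which is from ZT7. These 2 fits called 1027 and 1269 of all genes at ZT7. Leaving out replicate 4 of sham ZT1 gave calls at ZT1 for Mal (1.75) and Sox10 (1.29). Leaving out replicate 2 of VSG ZT13 gave a call at ZT13 for Ngfr (1.29), in a fit that called 2759 of all genes at ZT13. Leaving out replicate 1 of VSG ZT13 gave a call at ZT7 for Mbp (0.74). Over the fits without 1 library, 21 to 2873 of all genes were called at ZT1 and 82 to 1668 at ZT7. At ZT19, 3 of 4 VSG libraries and 0 of 4 sham libraries held muscle RNA, so tissue makeup and surgery cannot be told apart at that time. The same limit holds at ZT1. There replicates 1, 3 and 4 of VSG were B cell libraries and replicate 2 held muscle RNA, which left no VSG library free of both. Among the sham libraries of ZT1, replicate 1 was a B cell library and replicate 4 held muscle RNA.

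**Figure D4:**
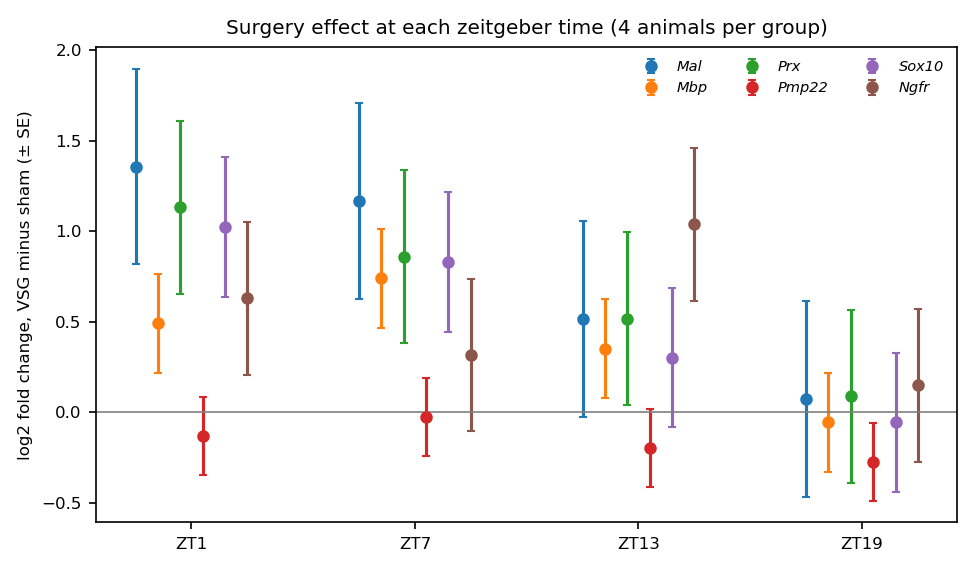
Log2 fold change of VSG against sham (± SE, 4 animals per group) for the 6 genes at each zeitgeber time. Mal, Prx and Sox10 are near or above 1 at ZT1 and close to 0 at ZT19, Pmp22 is below 0 at each time, and no point passed the adjusted threshold.

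No daily rhythm was called in any of the 6 genes. A 24 h cosine was called in 0 of 6 after sham, where 1.6% of all genes were called, and in 0 of 6 after VSG, where 0.507% were. Ngfr came nearest after sham, with an amplitude of 0.69 on the log2 scale and a peak at ZT0.8 (adjusted p = 0.199, limma). Its sham means ran from 93.9 ± 49.7 at ZT1 to 33.4 ± 11.2 at ZT13 (SD, n = 4 each), and replicate 1 of sham ZT1, a B cell library, was the highest of them. After sham Mal, Sox10 and Prx had fitted peaks at ZT15.5, ZT15.4 and ZT15.5 with amplitudes of 0.41, 0.47 and 0.38, and adjusted p = 0.484 to 0.688. The difference in rhythm between arms was called for 0 of 6 genes and 0.0% of all genes (adjusted p = 1 for each of the 6, limma).

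No slope on weight loss was called within either arm. Among VSG animals the log2 slope per unit of weight loss, with a mean for each time, was −0.096 ± 0.050 for Mal, −0.056 ± 0.029 for Mbp, −0.086 ± 0.050 for Prx and −0.049 ± 0.022 for Pmp22 (SE, n = 16; adjusted p = 0.237 to 0.356, limma). Sox10 and Ngfr had slopes of −0.030 and 0.029 (adjusted p = 0.712 and 0.782). None of the 6 was called, against 2.71% of all genes. Among sham animals the slopes were −0.044 to 0.14 (adjusted p = 0.385 to 0.872), with 0 of 6 called against 0.00642% of all genes.

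Mal, Mbp and Prx varied together from animal to animal. After the 8 group means were subtracted, Pearson r over the 25 libraries without muscle RNA was 0.95 for Mal and Prx, 0.91 for Mbp and Prx and 0.88 for Mal and Mbp. Over the 27 libraries without the B cell ones it was 0.90, 0.93 and 0.92. Sox10 correlated with Mal at 0.86 and 0.67 in these sets, and Pmp22 with Mal at 0.77 and 0.54. Ngfr went the other way in the first set, at −0.55 with Mal and −0.56 with Prx, and showed no such relation without the B cell libraries, at 0.04 and 0.08. These are descriptions: the values of a library share its depth and its tissue makeup.

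**Figure D5:**
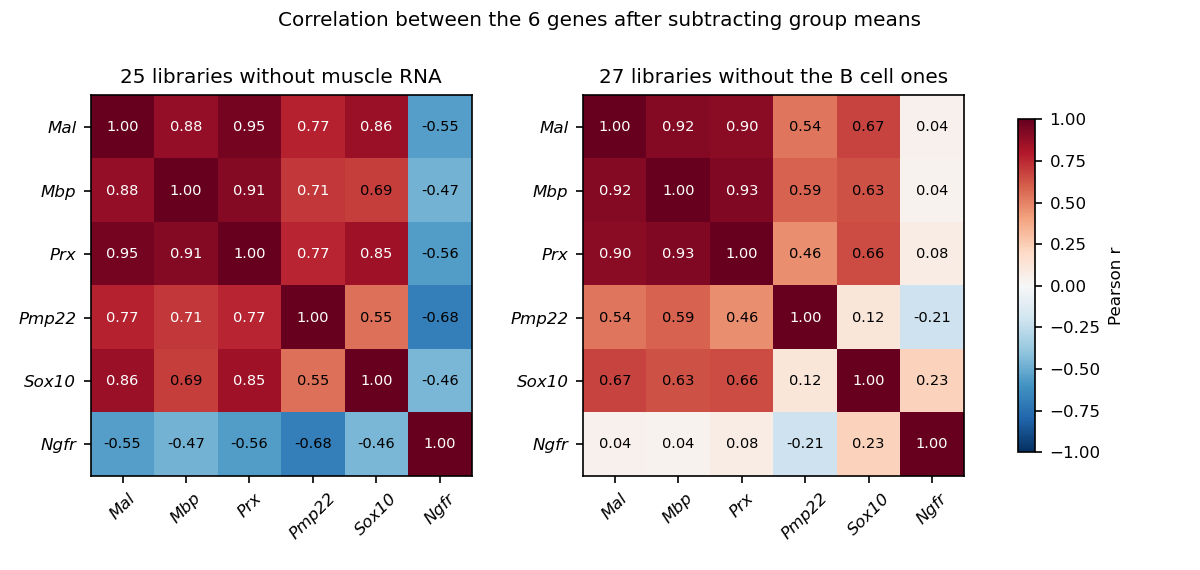
Pearson r between the 6 genes after subtracting the 8 group means from log2 values, over 25 libraries without muscle RNA (left) and 27 libraries without the B cell ones (right). The block of Mal, Mbp and Prx is at 0.88 or above on both sides, and the negative row of Ngfr on the left is near 0 on the right for Mal, Mbp and Prx.

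The genes most like each of the 6 were named by r over the same 25 libraries, among 12218 protein-coding genes with a mean of at least 50. Among the nearest to Mal were Fa2h (0.973), the hydroxylase of myelin sphingolipids, and Drp2 (0.967), the partner of Prx at the membrane. Among the nearest to Prx were Drp2 (0.970) and Mal (0.953), and among the nearest to Mbp were Prx (0.914) and Drp2 (0.910). Sox10 was nearest to Plekha4 (0.902), Cadm4 (0.902), the Schwann cell adhesion molecule that meets the axon, and Cldn19 (0.888), a tight junction protein of Schwann cells. All of these stayed at 0.70 or above without the B cell libraries.

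Ngfr and Pmp22 had other neighbours. Ngfr was nearest to Dtx1 (0.840), Dffb (0.831) and Hnrnpl (0.827), which fell to 0.565, 0.508 and 0.496 without the B cell libraries. Pmp22 was nearest to Hist2h3c2 (0.932), Ryk (0.924) and Klhdc10 (0.918), at 0.580, 0.721 and 0.584 without them. Ngfr followed the mean of the B cell list at 0.73 and of the follicular dendritic cell list at 0.72 over all 32 libraries, and at 0.14 and 0.09 without the 5 B cell libraries. Pmp22 followed the same lists at −0.76 and −0.77, and at −0.06 and −0.14 without those libraries. Negative values were shared by the other genes: with the B cell list r was −0.69 for Mal, −0.69 for Prx, −0.76 for Sox10 and −0.47 for Mbp, and 0.16, 0.04, 0.11 and 0.19 without the B cell libraries. The part of lymphoid RNA in the level of these genes was not tested.

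Other genes of peripheral myelin were higher after VSG in the same comparison. Of 20 myelin genes tested, which include 4 of the 6 genes, 12 rose, Mal, Mbp and Prx among them, and 1 fell. The median log2 difference of the list, with those 4 genes included, was 0.58 beside 0.0125 over all genes. The counts of this and the lists below stand beside 18.3% of all genes called higher and 20.9% called lower. Mag, an adhesion protein between Schwann cell and axon, rose from 66.7 ± 26.9 to 103 ± 21.1 (log2 0.67, adjusted p = 0.000551, limma). Pllp, a proteolipid of the Mal family, rose from 204 ± 53.7 to 299 ± 76.3 (log2 0.55, adjusted p = 0.00171). Dusp15, a phosphatase of myelinating glia, fell from 245 ± 105 to 142 ± 56.8 (log2 −0.76, adjusted p = 0.0190). Without the muscle libraries 4 rose and 1 fell, Mag (adjusted p = 0.00968) and Pllp (0.0128) among those that rose, and without the B cell libraries 16 rose and 0 fell.

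Genes of Schwann cell identity were called in both directions. Of 19 tested, 2 of them among the 6, 10 rose, Sox10 and Ngfr included, and 2 fell, with a median log2 difference of 0.39. Foxd3, a transcription factor of neural crest and its glia, rose from 10.7 ± 6.20 to 20.6 ± 11.5 (log2 0.91, adjusted p = 0.00175, limma), and L1cam, an adhesion molecule of non-myelinating Schwann cells and axons, from 284 ± 61.2 to 341 ± 36.9 (log2 0.28, adjusted p = 0.00176). Itga6, a laminin receptor also made by vessels, fell from 4302 ± 908 to 2664 ± 541 (log2 −0.68, adjusted p = 1.69e-05). S100b, a calcium-binding protein of Schwann cells that fat cells also make, fell from 399 ± 90.0 to 203 ± 80.6 (log2 −1.04, adjusted p = 0.000183). The count that rose was 6 without the muscle libraries, 6 without the B cell libraries, 6 among genes with a mean of at least 50 and 5 after quantile normalization, with 2 falling each time. It was 5 without replicate 3 of VSG ZT13 or replicate 3 of sham ZT19, and 6 without replicate 1 of sham ZT13, replicate 4 of VSG ZT13 or replicate 2 of VSG ZT19.

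Of 8 genes tested that mark repair Schwann cells after nerve injury, 1 rose, Ngfr itself, and 3 fell, with a median log2 difference of 0.03. Mcam, an adhesion molecule that vessels share, fell from 21300 ± 3920 to 13391 ± 2791 (log2 −0.67, adjusted p = 1.21e-05, limma), and Lif, a cytokine, from 115 ± 60.5 to 59.1 ± 27.6 (log2 −0.92, adjusted p = 0.000365). Jun, the transcription factor that drives the repair state, had a log2 difference of −0.03 (adjusted p = 0.902).

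Among ligands and receptors of the neurotrophin and glial pathways, 4 of 21 genes tested rose and 4 fell, with a median log2 difference of 0.03, shares close to those over all genes. Ret, the receptor of GDNF family ligands, fell from 2963 ± 792 to 1102 ± 415 (log2 −1.45, adjusted p = 3.78e-06). Ngfrap1, which binds the intracellular part of Ngfr, rose from 221 ± 64.5 to 290 ± 61.3 (log2 0.40, adjusted p = 0.000607). Adgrg6, a receptor that Schwann cells need to begin myelination, rose from 160.2 ± 41.9 to 212 ± 30.5 (log2 0.42, adjusted p = 0.00147). Without the muscle libraries 3 rose and 3 fell, without the B cell libraries 2 rose and 3 fell, and after quantile normalization 2 rose and 4 fell. Leaving out 1 library at a time, 2 to 4 rose and 3 to 6 fell.

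Axons and nerve sheaths gave few calls. Of 18 axon and nerve terminal genes, 6 had values high enough to be tested, of which 0 rose and 1, the sensory neuropeptide gene Calca, fell from 38.7 ± 13.02 to 24.7 ± 9.78 (log2 −0.66, adjusted p = 0.00229, limma). Without replicate 1 of sham ZT1, 2 of these rose and 2 fell. Of 9 perineurial and endoneurial genes, 1 rose, the integrin gene Itgb4, from 619 ± 161 to 941 ± 169 (log2 0.63, adjusted p = 6.62e-05), and 3 rose without replicate 4 of sham ZT1 and 2 without replicate 2 of sham ZT13 or of VSG ZT13. Of 5 melanocyte genes, which share neural crest origin and Sox10, 2 rose (Mitf and Mlana) and 2 fell (Kit and Dct). The 1 oligodendrocyte gene tested was not called.

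Marker genes of other cell types were called to different extents. Rising against falling genes were 11 and 0 of 12 for macrophages, 4 and 1 of 15 for B cells, 0 and 0 of 14 for T cells, 1 and 0 of 5 for follicular dendritic cells and 2 and 0 of 3 for epithelia. They were 3 and 1 of 12 for endothelium, 0 and 4 of 10 for smooth muscle and pericytes, 1 and 3 of 12 for progenitors and fibroblasts, 1 and 4 of 12 for adipocytes, and 0 and 1 of 16 for skeletal muscle. The shares of T cell and skeletal muscle genes called were below those over all genes in both directions. Median log2 differences were 1.09 for B cells, 0.96 for follicular dendritic cells, 0.88 for macrophages and 0.85 for T cells. Epithelia stood at 0.77, a median over only those 3 of 12 listed genes with values high enough to be tested. Skeletal muscle stood at 0.45 and endothelium at 0.05, beside 0.58 for the myelin list. Smooth muscle and pericytes stood at −0.22, progenitors and fibroblasts at −0.26 and adipocytes at −0.19. Without replicate 1 of sham ZT1, a B cell library, 10 B cell and 9 T cell genes rose and 6 progenitor and fibroblast genes fell. That fit called 6908 of all genes, against 6108 with all 32 libraries. Without replicate 2 of sham ZT13, a muscle library, 5 muscle genes rose. Without replicate 2 of VSG ZT1 8 B cell genes rose, and without replicate 2 of sham ZT1 2 did. Among macrophage genes, Fcgr1 rose from 215 ± 80.9 to 600.1 ± 280 (log2 1.37, adjusted p = 6.62e-05, limma), and among adipocyte genes Lep fell from 121050 ± 32161 to 45641 ± 21658 (log2 −1.47, adjusted p = 2.12e-05). The part of these genes' cell types in the values of the 6 genes was not tested.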

How the data were processed

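Signal values as deposited are gene counts that the authors scaled library by library: each library has its own unit step, and 100% of its values are whole multiples of that step to within 0.001, so whole reads could be recovered. The submitters' processing notes name DESeq2 1.24.0, featureCounts 1.5.0-p1, STAR 2.5.2a and mm10 without saying what each did, and no source used here gives the strand setting. Further deposited tables of the same study were not used here.

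Groups (surgery and time) and weight loss were read from the sample labels, and animals of a group carry numbers in accession order. Genes with a mean of at least 10 were tested on log2(value + 1) with limma 3.58.1 (R 4.3.3, trend) over 8 group means and Benjamini-Hochberg adjustment, so fold changes are on that scale and understate those of low genes. edgeR 4.0.16 and DESeq2 1.42.0 on whole reads were alternatives, as were pseudocounts of 0.5 and 5, other filters and scalings, library weights, a muscle covariate and left-out libraries. The fits were also run on simulated data with known changes, and the rates of recovery are not given here. Ratios between genes were tested by 100000 permutations of surgery within times. Exon lengths came from GENCODE M21 (GRCm38). No 2 libraries of the same group agreed within sampling noise (chi-square per degree of freedom of at least 19.6 over 48 pairs).

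The 6 genes and all lists were chosen with earlier results of these data known. Text names the 6, up to 2 rising and 2 falling genes per list by smallest adjusted p, and the 3 genes most like each of the 6, except that some results this rule would name are not reported here. Jun and Mobp were also named for what they mark, after values were seen.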

Additional observations from a re-analysis of the deposited data

Results flagged for a closer look

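A single library, replicate 1 of VSG ZT13, stood apart from its group in 2 of the 6 genes. Its Sox10 value was 49.54, while the other 3 libraries of the group lay between 167.9 and 186.7. Its Ngfr value was 175.2, while the others lay between 39.26 and 58.35. In both cases the gap to the nearest library, as a share of the range of the group, was above Dixon's 95% critical value for 4 samples. The same library is 1 of the 5 highest in B cell genes, and its part in these values was not tested further. Over the 48 groups of 4 examined, chance alone flags about 1 in 20.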

How the results depend on the processing

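No paired analysis was possible because the replicate numbers were given in accession order and pair no samples. Over all times, the 5 calls kept direction and threshold with pseudocounts of 0.5 and 5, with both other filters, TMM rescaling, array weights, the muscle covariate, edgeR and DESeq2. Quantile normalization left 1 of 6 genes called, with weaker log2 values for Mal (0.7089), Sox10 (0.4422), Ngfr (0.4644) and Prx (0.6309). Leaving out the 7 muscle libraries left 0 called, at 0.6247 for Mal, 0.2391 for Mbp, 0.4394 for Sox10, 0.5324 for Ngfr and 0.4727 for Prx; leaving out the 5 B cell libraries weakened Ngfr (0.3274). Array weights made Pmp22 a call (−0.2054, adjusted p = 0.0376, limma). Fits without libraries rest on fewer of them, and for quantile normalization and array weights the cause was not tested. Leaving out 1 library at a time gave ranges over all times of 0.3322 to 0.469 for Mbp, 0.427 to 0.6392 for Sox10, 0.4184 to 0.6074 for Ngfr and 0.5616 to 0.8216 for Prx, 0.5181 to 0.8102 for Ngfr to Pmp22, and up to 2 genes called at ZT1.

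Uncalled values that changed sign when 1 library was left out had these ranges. Sham slopes ran from −0.02084 to 0.2005 for Mal, −0.03322 to 0.05438 for Mbp, −0.09667 to 0.1131 for Ngfr, −0.03577 to 0.06223 for Pmp22 and −0.06431 to 0.1066 for Prx. VSG slopes ran from −0.05185 to 0.01304 for Sox10 and −0.01523 to 0.07253 for Ngfr. Pmp22 ran from −0.3131 to 0.04106 at ZT1, −0.1581 to 0.07759 at ZT7 and −0.3295 to 0.03138 at ZT13. ZT19 values ran from −0.2221 to 0.2693 for Mal, −0.2408 to 0.07622 for Mbp, −0.3263 to 0.1602 for Sox10, −0.03523 to 0.3356 for Ngfr and −0.1512 to 0.2482 for Prx. Ratios ran from −0.2377 to 0.05057 for Mbp to Ngfr, −0.1804 to 0.2208 for Sox10 to Ngfr and −0.4032 to 0.04265 for Ngfr to Prx.

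At ZT7, array weights called 1 gene (Sox10), and the fits without B cell libraries and of the 8 ZT7 libraries alone called 3 each. At ZT13, the fit without B cell libraries called 1 (Prx), as did DESeq2 (1, Ngfr), and array weights called 1 sham rhythm (Ngfr). Ratios without the muscle libraries were weaker for Mal (0.8275), Mbp (0.4418) and Sox10 (0.6422) to Pmp22 and for Pmp22 to Prx (−0.6755). Values that changed sign were called neither before nor after. Without muscle libraries these were the sham slopes of Mbp (−0.02425), Ngfr (0.2148), Pmp22 (−0.06282) and Prx (−0.05445), the ZT19 values of Mal (−0.4713), Ngfr (−0.07549) and Prx (−0.3269), and Ngfr to Prx (0.05966). Without B cell libraries they were the VSG slopes of Sox10 (0.004055) and Ngfr (−0.02687), Pmp22 at ZT1 (0.0666) and ZT13 (0.03138), and the ratios of Mbp (0.2054) and Sox10 (0.3939) to Ngfr. The muscle covariate turned Mal (−0.5345) and Prx (−0.3846) at ZT19, array weights the VSG slope of Ngfr (−0.01778) and Sox10 at ZT19 (0.02559), quantile normalization (0.06153) and edgeR (0.002908) Pmp22 at ZT7, and a pseudocount of 5 Sox10 to Ngfr (0.00447). Ngfr had the fewest reads, and each single time rests on 4 animals per arm. Over all genes, counts called ran from 4387 (without muscle libraries) to 8790 (array weights) around 6108 over all times, and with array weights reached 3923 at ZT1 (860 as reported), 4097 at ZT7 (794), 5381 at ZT13 (1549), 906 at ZT19 (0), 1783 sham rhythms (250) and 2010 VSG slopes (423). The fit of ZT1 alone called 0, ZT13 without muscle libraries 46, and the VSG slope without muscle libraries or without B cell libraries 0. A test of any difference between times called 237 VSG rhythms (79). Leaving out replicate 1 of sham ZT7 or replicate 4 of VSG ZT7 left 82 calls at ZT7.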
